A study of Mus musculus with 6 samples.

Results

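Collagen genes were examined in mouse liver from a comparison of mice lacking the transcription factor Slug in hepatocytes with littermate controls. They were taken by symbol, as every gene whose name has the form Col, a type, the letter a and a chain (Col1a1, Col1a2 and so on) on a probe set assigned to a single gene. This gave 47 probe sets for 44 genes out of 22180 genes measured. Where a gene had several probe sets, the one with the highest mean over the arrays was used. The 44 genes comprised 11 fibrillar, 8 basement membrane, 6 beaded filament, 9 fibril-associated, 4 network-forming or anchoring and 4 transmembrane collagens, and 2 that were left unclassified.

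Livers came from male C57BL/6J mice that were fed a high fat diet (60% of calories) for 11 weeks, starting at the age of 8 weeks. The 3 mice called Con carried the floxed Slug allele (Slug f/f). The 3 mice called HKO came from a cross of such mice with albumin-CreERT2, a tamoxifen-dependent Cre recombinase under the albumin promoter, which is active in hepatocytes. The sources used here do not say whether Con mice carried Cre or how its activity was switched on. Each mouse gave 1 Affymetrix array, hybridised from 400 ng of total RNA taken from matching liver parts. Values are on the log2 scale after RMA, a procedure that subtracts background, equalises the arrays' distributions and summarises probes, so that a difference of 1 is a doubling. Differences are given as HKO minus Con with limma's standard error (SE), and the adjusted p is limma's, corrected by Benjamini-Hochberg across the 22180 genes and called at 0.05.

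Collagens are secreted proteins in which chains wind into a triple helix. Fibrillar collagens, above all types I and III in the liver, assemble into the tensile fibres of scar tissue and portal tracts, whereas type IV collagen forms the sheet of basement membranes and type VI a beaded filament between cells and fibres. In liver, hepatic stellate cells and portal fibroblasts are the main makers of fibrillar collagen, while hepatocytes, the cells targeted here, are known for type XVIII. Snail-family proteins such as Slug are zinc finger repressors that bind E-box sequences.

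The targeted gene, Snai2, which encodes Slug, stood at 7.74, 7.69 and 7.39 in Con and at 4.62, 5.23 and 5.69 in HKO. The groups did not overlap, and Snai2 fell by 2.43 ± 0.25 (SE, n = 3 per group, limma adjusted p = 0.0145). The adjusted p no longer passed without Con replicate 1 (0.0758), Con replicate 2 (0.0927) or HKO replicate 2 (0.0621), while the difference stayed between -2.69 and -2.15 with any array left out. With 3 arrays a side, the exact permutation test (two-sided) cannot go below p = 0.1, which is what it gave. The sources used here do not say where the floxed exons lie relative to the probes. Any pair of arrays from 1 group had a correlation over all genes of 0.989 to 0.992, and pairs across groups 0.986 to 0.988.

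Of the 44 collagen genes, 1 fell and 0 rose past the adjusted threshold, a share of 2.27% lower against a background of 0.113% of all genes lower and 0.0902% higher. Col1a2, a chain of type I collagen, was the gene that fell, by 0.98 log2 units. In 12 of the 44 genes (27.3%) all 3 HKO arrays lay below all 3 Con arrays, against 10.1% of all genes. In 2 genes (4.55%) they lay above, against 8.05% of all genes. At an unadjusted p under 0.05, 12 collagen genes were lower and 0 higher, against 6.56% and 5.31% of all genes. The median difference over the 44 genes was -0.056, beside -0.0081 over all genes. The mean in HKO was lower in 25 collagen genes and higher in 19, where 51.8% of all genes had a lower mean. The genes with the lower values encode chains of types I, III, IV, V, VI and XIV among others, and the values of each follow by class. In bulk liver RNA, fewer cells of a type and less RNA per cell cannot be told apart.

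Many collagens are expressed in cartilage, skin or nerve rather than liver, and gave signals near the array's background. A collagen gene was called dim where both group means were at or below 3.87, the 95th percentile of the mean levels of 1105 olfactory receptor genes, which served as a measure of that background. By this rule 24 collagen genes were dim and 20 were not. The levels nearest to that limit, taken as the higher group mean, were 3.79 for Col7a1 on the dim side and 4.10 for Col25a1 on the other. Of the 20, 19 were above the limit in both groups and Col25a1 was above it in Con only. As a check of the tissue label, 10 hepatocyte genes were read. All were above the background limit, but so were 51.0% of all genes, so the limit alone says little of the tissue. Alb, the albumin gene, had means of 12.44 in Con and 12.45 in HKO. Ass1 was the lowest of the 10, with means of 4.92 and 4.98.

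Promoter sequences are shown for 4 collagen genes as examples, because Slug is a DNA-binding protein. Genes of types I, III and VI were picked from those with lower HKO values. Col4a1, Col4a2 and Col5a1, of types IV and V, also had lower values and are not shown. The sequences are the 250 bases before the annotated start, 5′ to 3′ on the gene's own strand, from RefSeq on GRCm38.p6. Capitals mark matches to 4 motifs, each searched as given and as its complement on the other strand. The first was the CCAAT box, with complement ATTGG. A second was the TATA box, searched as TATAAA with complement TTTATA. The GC box was searched as GGGCGG with complement CCGCCC. The last was the E-box bound by Snail-family proteins, searched as CAGGTG with complement CACCTG. Col1a2 and Col3a1 are fibrillar, Col6a1 is a beaded filament chain, and Col8a1 is shown as a gene with an E-box match.
Col1a2, chr6:4505368-4505617, plus strand: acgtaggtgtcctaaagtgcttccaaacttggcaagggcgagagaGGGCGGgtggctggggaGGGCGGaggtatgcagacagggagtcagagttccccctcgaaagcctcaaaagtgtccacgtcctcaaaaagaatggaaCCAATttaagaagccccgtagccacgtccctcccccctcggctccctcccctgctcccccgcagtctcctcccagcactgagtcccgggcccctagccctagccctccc
Col3a1, chr1:45311288-45311537, plus strand: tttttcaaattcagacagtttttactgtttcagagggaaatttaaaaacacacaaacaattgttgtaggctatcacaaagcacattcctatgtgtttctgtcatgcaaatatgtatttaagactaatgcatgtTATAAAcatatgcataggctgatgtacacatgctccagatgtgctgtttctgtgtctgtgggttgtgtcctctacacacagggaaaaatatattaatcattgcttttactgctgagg
Col6a1, chr10:76726045-76726294, minus strand: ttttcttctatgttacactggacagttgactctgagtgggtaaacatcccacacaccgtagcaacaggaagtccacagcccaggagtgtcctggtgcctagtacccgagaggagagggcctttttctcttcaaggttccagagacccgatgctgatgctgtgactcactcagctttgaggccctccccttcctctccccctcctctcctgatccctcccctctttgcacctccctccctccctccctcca
Col8a1, chr16:57754738-57754987, minus strand: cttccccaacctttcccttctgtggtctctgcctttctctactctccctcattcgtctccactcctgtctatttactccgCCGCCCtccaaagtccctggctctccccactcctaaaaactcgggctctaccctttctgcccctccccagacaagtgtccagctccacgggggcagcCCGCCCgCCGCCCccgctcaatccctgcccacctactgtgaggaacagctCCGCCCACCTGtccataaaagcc

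The Col1a2 window held a CCAAT match that starts 109 bases before the gene's start and GC box matches that start 205 and 188 bases before it. The Col3a1 window held TATAAA 117 bases before the start, and the Col6a1 window held none of the 4 motifs. In Col8a1 the E-box match starts 18 bases before the gene's start and shares its first base with the last base of the GC box match that starts at 23. Of the 44 genes, 35 had a promoter entry, with 38 windows in all. Col1a1 had none. The E-box letters were in 4 of these 38 windows (10.5%), compared with 17.2% of 32851 windows of all genes. The genes concerned, Col4a4, Col6a5, Col8a1 and Col16a1, were all dim and differed by 0.22, -0.094, -0.34 and -0.071. All HKO arrays lay below Con in Col8a1 only, and above Con in Col4a4. The CCAAT letters were in 34.2% of collagen windows and 33.8% of all, and TATAAA in 13.2% and 12.4%. The GC box was in 57.9% of collagen windows and 32.7% of all. A match describes letters in this window only and says nothing of binding.

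The 3 lowest differences of the family were those of fibrillar genes, Col1a1, Col1a2 and Col3a1. Of 11 genes, 6 had a lower mean in HKO, and the median difference was -0.12. In 5 of the 11 (45.5%) all HKO arrays lay below Con, beside 10.1% of all genes and 15.1% of genes above background. Both chains of type I collagen, the most abundant protein of scar matrix, led the class. For Col1a1 (probe set 17255260) the Con arrays read 6.56, 6.25 and 6.95 and the HKO arrays 5.06, 5.23 and 5.51. Every HKO array was at least 0.74 below the lowest Con array. The means were 6.59 ± 0.35 and 5.27 ± 0.23 (SD, n = 3 each), a difference of -1.32 ± 0.19 (SE), or 2.50-fold lower, with a 95% interval of -1.76 to -0.88. This was the 20th lowest difference among all genes, but with a limma adjusted p of 0.0533 it did not pass the threshold.

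Col1a2 (probe set 17455801), whose product pairs with that of Col1a1 in type I collagen, read 5.51, 5.78 and 5.91 in Con and 4.70, 4.66 and 4.90 in HKO. Again no HKO array reached the lowest Con array, from which the nearest was 0.61 away. The Con mean was 5.73 ± 0.20 and the HKO mean 4.75 ± 0.13 (SD, n = 3 each), so that Col1a2 fell by 0.98 ± 0.13 (SE), or 1.97-fold (95% interval -1.28 to -0.68, limma adjusted p = 0.0415). Here too the exact permutation p was at its floor of 0.1 (two-sided). The call was lost when any of the 6 arrays was left out, with limma adjusted p from 0.0758 without Con replicate 1 to 0.176 without Con replicate 2, and under a second quantile normalization (0.0576). A second Col1a2 probe set with a mean level of 2.70, below the background limit, had a difference of -0.18, and averaging both gave -0.58 with a limma adjusted p of 0.0975.

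Col3a1 encodes type III collagen, which forms thin reticulin fibres together with type I. It read 5.97, 6.31 and 6.61 in Con and 5.18, 5.78 and 5.41 in HKO. HKO replicate 2 came within 0.19 of the lowest Con array. The difference was -0.84 ± 0.20 (SE), or 1.79-fold lower, with a 95% interval of -1.30 to -0.38 and a limma adjusted p of 0.180, so it was not past the threshold.

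Type V collagen nucleates the fibrils of type I. Col5a1 read 4.68, 4.93 and 5.29 in Con and 4.48, 4.13 and 4.60 in HKO, and its groups were separated by 0.077. The difference was -0.56 ± 0.18 (SE, limma adjusted p = 0.297), and -0.33 when its second, dim probe set was averaged in. Col5a2, the partner chain, read 4.23, 4.02 and 4.45 in Con and 3.78, 3.94 and 4.08 in HKO. Its groups overlapped, with a difference of -0.30 ± 0.14 (SE, limma adjusted p = 0.453). Col5a3, a further type V chain, read 4.69, 4.72 and 4.80 in Con and 4.59, 4.68 and 4.59 in HKO. These groups were apart by less than 0.01, and the difference of -0.12 ± 0.10 (SE) had a 95% interval of -0.34 to 0.10. Col27a1, a fibrillar collagen of cartilage, read 5.28, 4.99 and 5.04 in Con and 5.19, 4.88 and 5.43 in HKO. The groups overlapped, and its difference was 0.068 ± 0.16 (SE, limma adjusted p = 0.908). The other 4 fibrillar genes, Col2a1, Col11a1, Col11a2 and Col24a1, all cartilage or bone collagens, were dim, and their differences ran from 0.067 to 0.16.

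**Figure D1:**
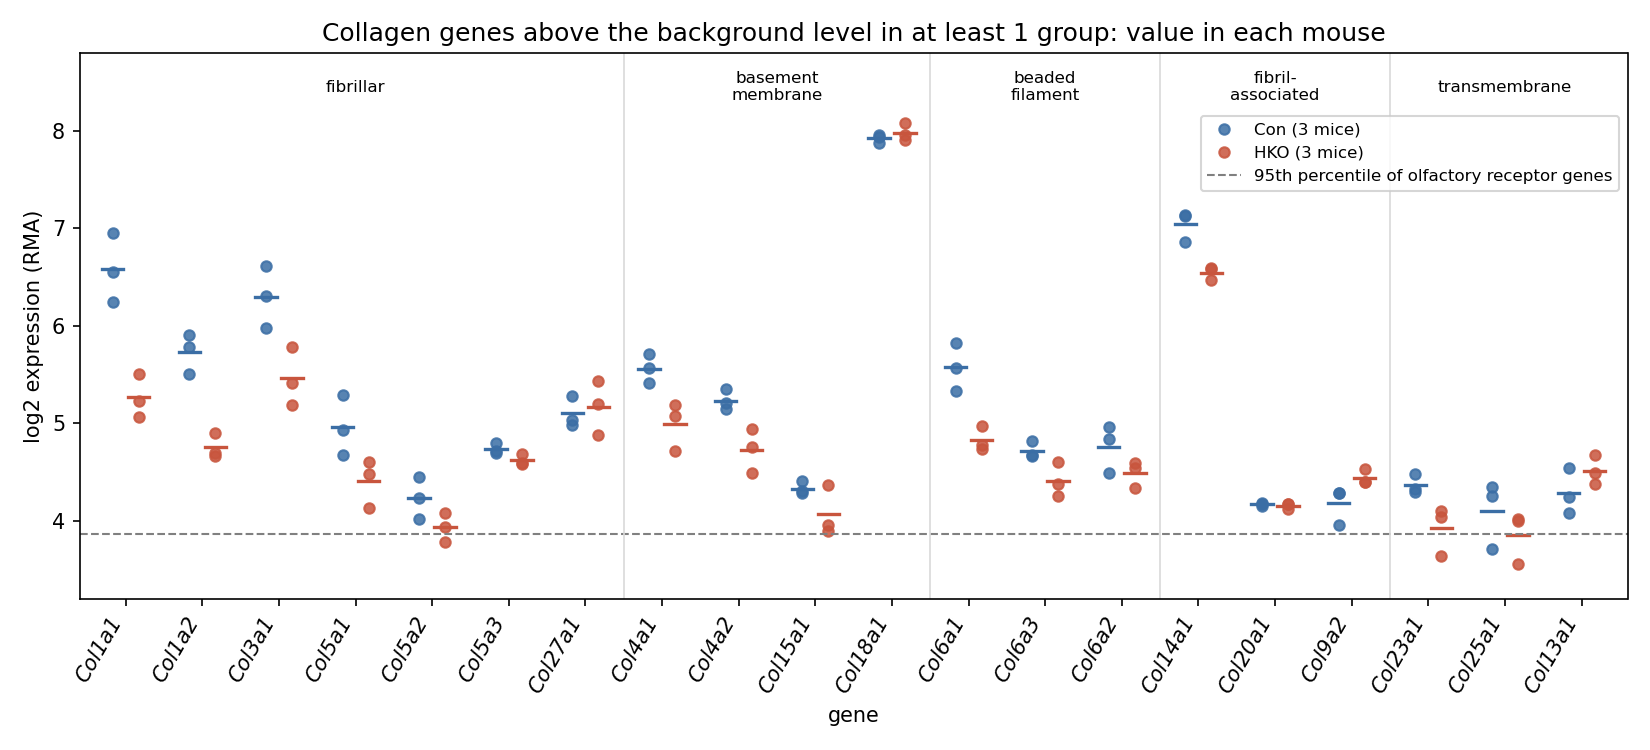
Log2 expression of the 20 collagen genes above background in at least 1 group, by gene along the x axis, with a point per mouse, a bar at each group mean (3 mice each) and a dashed line at the background limit of 3.87. The Col1a1 points are farthest apart, with Con between 6.25 and 6.95 and HKO between 5.06 and 5.51, while those of Col18a1 lie together near 8.

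Among the 8 basement membrane collagens, the common type IV chains had lower HKO values and type XVIII did not. Across the class, 4 genes had a lower and 4 a higher mean in HKO, and the median difference was -0.046. Of the 8, 2 (25%) were lower without overlap, beside 10.1% of all genes and 15.1% of genes above background. Col4a1 and Col4a2, which together form the type IV network under most endothelium and epithelium, are neighbours on chromosome 8 and start next to each other on opposite strands. Col4a1 read 5.57, 5.71 and 5.41 in Con and 4.71, 5.19 and 5.08 in HKO. Col4a2 read 5.14, 5.35 and 5.21 in Con and 4.49, 4.94 and 4.75 in HKO. In both genes HKO replicate 1 was the lowest of all arrays and no HKO array reached a Con array. The difference was -0.57 ± 0.15 for Col4a1 and -0.51 ± 0.14 for Col4a2 (SE), with limma adjusted p of 0.214 and 0.226.

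Col15a1 and Col18a1 encode proteoglycan collagens of vessel and epithelial basement membranes, and the end of the type XVIII chain can be released as endostatin. Col15a1 read 4.41, 4.28 and 4.304 in Con and 3.95, 3.89 and 4.36 in HKO. HKO replicate 3 lay among the Con arrays, and the difference was -0.26 ± 0.14 (SE, limma adjusted p = 0.523). Col18a1 read 7.93, 7.88 and 7.96 in Con and 8.08, 7.91 and 7.95 in HKO. The groups overlapped, with a difference of 0.057 ± 0.098 (SE) and a 95% interval of -0.17 to 0.28, so a fall as large as that of Col1a2 lies outside the interval. The tissue-restricted type IV chains Col4a3, Col4a4, Col4a5 and Col4a6, known from kidney and other specialised membranes, were dim. Their differences ran from -0.096 for Col4a3 to 0.22 for Col4a4, whose 3 HKO values all lay above Con.

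Type VI collagen, the beaded filament, was measured by 6 genes, of which the main chains Col6a1, Col6a2 and Col6a3 were above background and had a lower HKO mean. Col6a1 read 5.33, 5.82 and 5.57 in Con and 4.74, 4.78 and 4.97 in HKO. The groups were 0.37 apart, and the difference was -0.75 ± 0.14 (SE), or 1.68-fold lower, with a 95% interval of -1.08 to -0.42 and a limma adjusted p of 0.113. A second, dim Col6a1 probe set had a difference of 0.081, and averaging both gave -0.33. Col6a3 read 4.67, 4.67 and 4.82 in Con and 4.25, 4.60 and 4.38 in HKO. Its groups were separated by 0.064, with a difference of -0.31 ± 0.12 (SE, limma adjusted p = 0.381). Col6a2 read 4.49, 4.84 and 4.96 in Con and 4.33, 4.60 and 4.54 in HKO. Here the lowest Con array lay among the HKO arrays, and the difference was -0.27 ± 0.14 (SE, limma adjusted p = 0.521). The later-found chains Col6a4, Col6a5 and Col6a6 were dim, with differences of 0.16, -0.094 and 0.034.

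Fibril-associated collagens sit on the surface of fibrils and link them to other matrix. Of 9 genes, Col14a1, a collagen of connective tissue fibroblasts, read 6.86, 7.13 and 7.14 in Con and 6.59, 6.47 and 6.58 in HKO. All HKO arrays were lower, by 0.27 or more, and the difference was -0.49 ± 0.11 (SE, 95% interval -0.76 to -0.23, limma adjusted p = 0.171). Col9a2, a chain of cartilage type IX collagen, went the other way, with 4.29, 4.29 and 3.96 in Con and 4.53, 4.40 and 4.40 in HKO. No HKO array overlapped Con, but the difference of 0.26 ± 0.12 (SE) did not pass the threshold (limma adjusted p = 0.455). Col20a1 read 4.17, 4.19 and 4.15 in Con and 4.12, 4.18 and 4.17 in HKO, with overlapping groups and a difference of -0.014 ± 0.092 (SE). Its sign turned under a second quantile normalization, to 0.0061.

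Col12a1, a fibril-associated collagen of tendon and other dense tissue, was dim. It read 3.54, 3.54 and 3.08 in Con and 2.90, 3.19 and 2.71 in HKO. HKO replicate 2 lay above the lowest Con array, and the difference was -0.46 ± 0.17 (SE, limma adjusted p = 0.360). The other 5 dim genes of the class, Col9a1, Col9a3, Col16a1, Col19a1 and Col22a1, differed by -0.071 to 0.084, with overlapping groups.

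Network-forming and anchoring collagens were all dim. Col8a1, a short-chain collagen of vessel walls and the cornea, read 3.53, 3.68 and 3.74 in Con and 3.31, 3.32 and 3.299 in HKO. The 3 HKO values lay close together and at least 0.21 below Con, with a difference of -0.34 ± 0.10 (SE, limma adjusted p = 0.269). Col10a1, the collagen of hypertrophic cartilage, differed by -0.31, Col8a2 by 0.15 and Col7a1, which anchors skin basement membrane, by -0.0040, each with overlapping groups.

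Transmembrane collagens stay attached to the cell that makes them. Col23a1 read 4.48, 4.33 and 4.296 in Con and 3.64, 4.04 and 4.10 in HKO. The groups were 0.20 apart, and the difference was -0.44 ± 0.14 (SE, limma adjusted p = 0.293). Col13a1, found at cell-matrix junctions, read 4.54, 4.08 and 4.24 in Con and 4.67, 4.495 and 4.38 in HKO. Its groups overlapped, with a difference of 0.23 ± 0.14 (SE, limma adjusted p = 0.591). Col25a1, a collagen of neurons, read 4.35, 4.25 and 3.71 in Con and 3.999, 3.55 and 4.02 in HKO. It overlapped too, with a difference of -0.25 ± 0.20 (SE, limma adjusted p = 0.679). Col17a1, of skin hemidesmosomes, was dim and differed by -0.081. The unclassified Col26a1 and Col28a1 were dim and differed by 0.11 and -0.041.

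**Figure D2:**
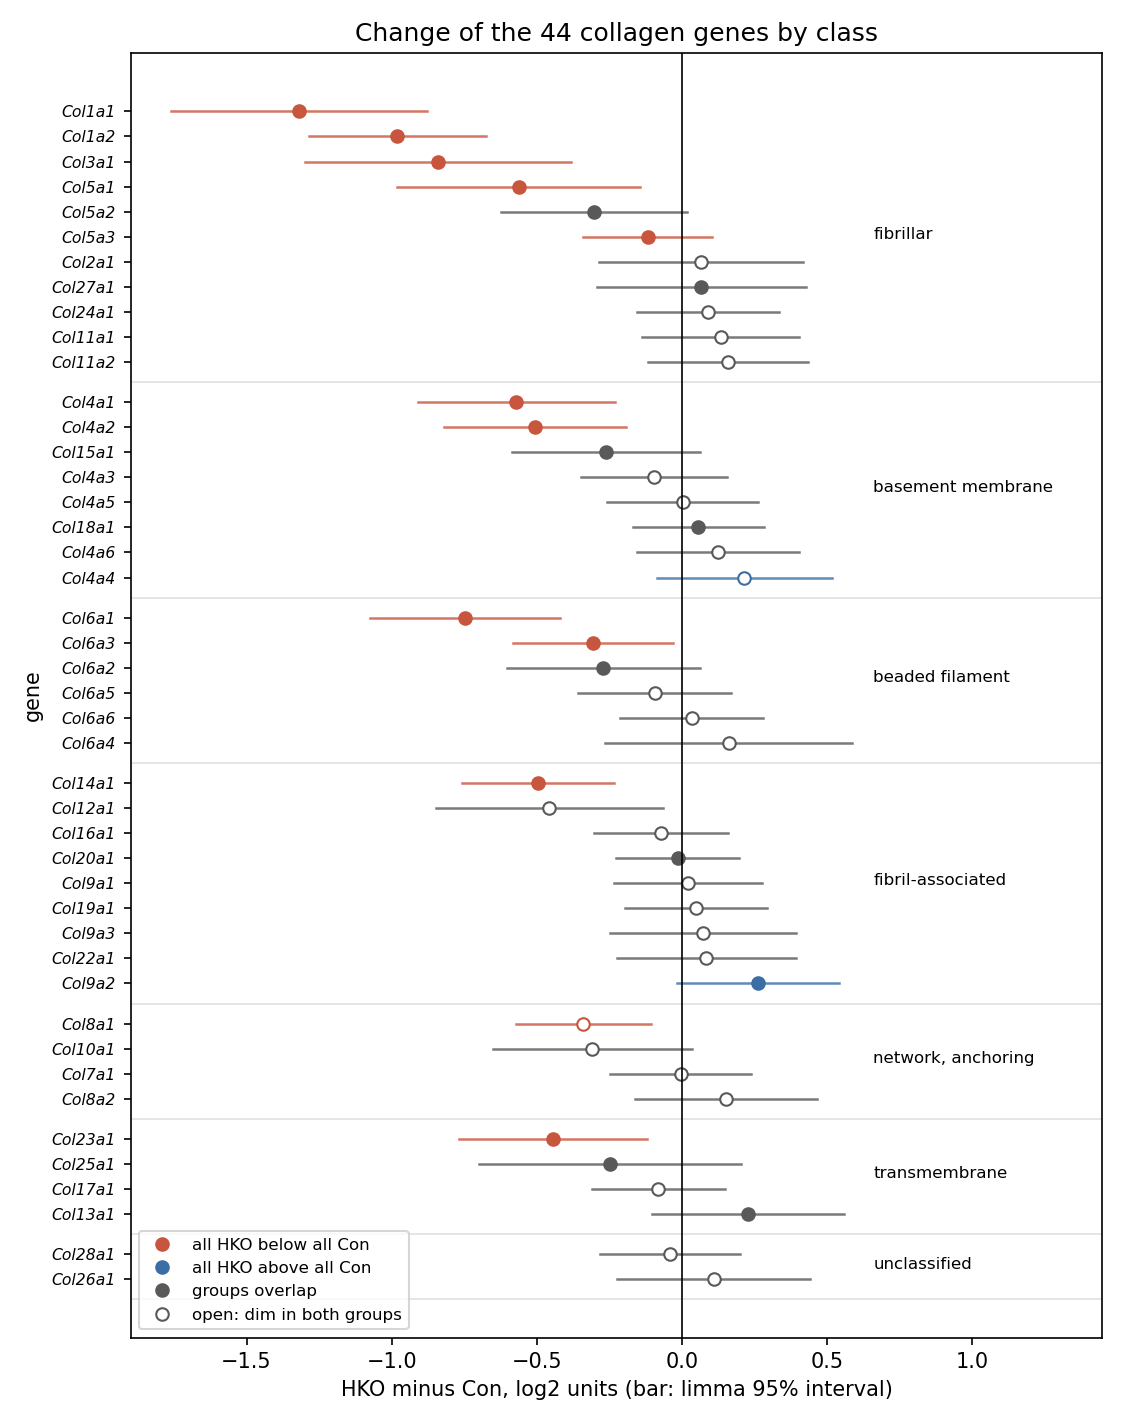
HKO minus Con difference on the log2 scale (x axis) for each of the 44 collagen genes (y axis), ordered within classes, with limma's 95% interval as a bar and open symbols for genes dim in both groups. The type I and III genes lie lowest, from -1.32 to -0.84, and all intervals that exclude 0 lie on the lower side.

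Several collagen genes are neighbours in the genome. Col3a1 and Col5a2, side by side on chromosome 1, differed by -0.84 and -0.30. Col6a1 and Col6a2, next to each other on chromosome 10, differed by -0.75 and -0.27. Among pairs of dim neighbours, Col4a4 and Col4a3 differed by 0.22 and -0.096, and Col9a1 and Col19a1 by 0.022 and 0.049. Col6a6, Col6a5 and Col6a4, in a row on chromosome 9, differed by 0.034, -0.094 and 0.16, and Col4a6 and Col4a5 by 0.13 and 0.0033. The difference between members of a pair was not tested. Over the 24 dim genes the median difference was 0.042, with 9 genes lower and 15 higher.

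The order of mice within groups was compared over the genes whose HKO values lay below Con. Among the 11 of them that were not dim, HKO replicate 1 was the lowest HKO array in 7, Con replicate 1 the lowest Con array in 7 and Con replicate 3 the highest in 7. Averaged over the 7 fibrillar genes above background, and set against the Con mean, the Con mice stood at -0.11, -0.095 and 0.20 and the HKO mice at -0.67, -0.62 and -0.45. Over the 4 basement membrane genes above background the HKO mice stood at -0.46, -0.28 and -0.23, and over the 9 others at -0.26, -0.23 and -0.19. In each of these sets every HKO mouse was below every Con mouse. These sets exclude dim genes and include Col25a1, which was above background through Con alone, so they describe the mice and support no test. Over the 4 dim fibrillar genes HKO mice stood at 0.26, 0.12 and -0.042.

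**Figure D3:**
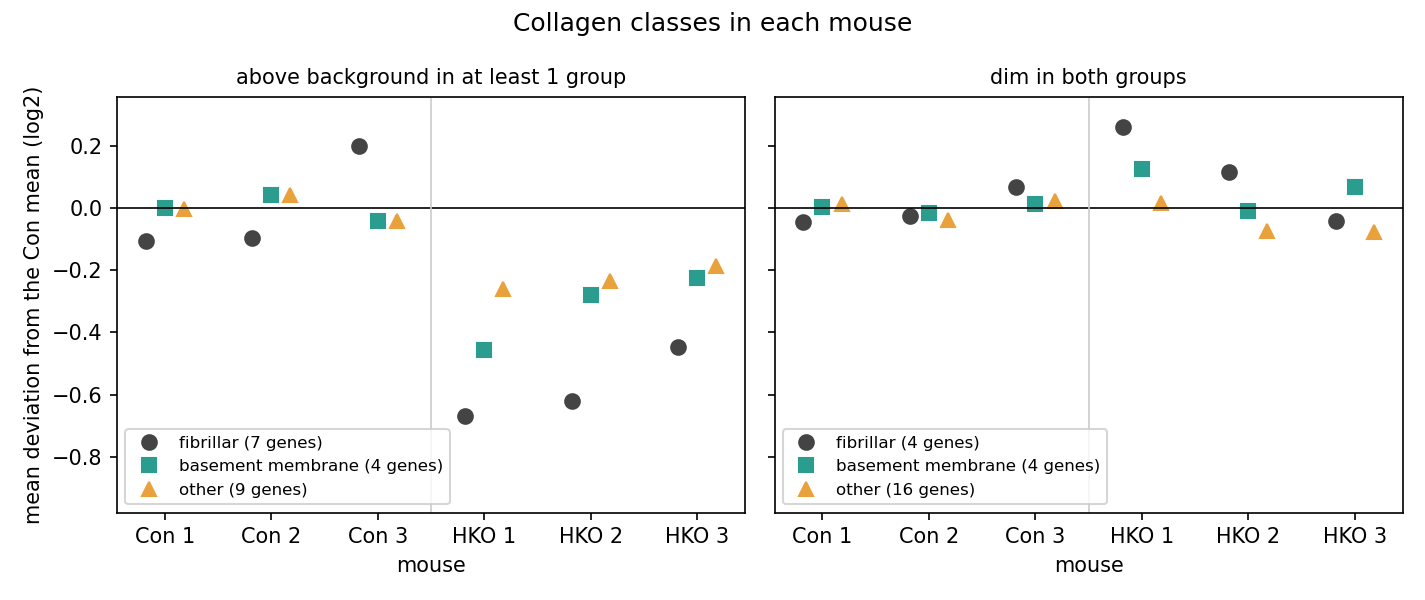
Mean deviation from the Con mean (y axis, log2) in each mouse (x axis) for fibrillar, basement membrane and other collagens, with genes above background in at least 1 group on the left and dim genes on the right. On the left the 3 HKO mice lie between -0.67 and -0.19 and the Con mice between -0.11 and 0.20, and on the right all mice lie between -0.077 and 0.26.

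Genes that act on collagen were read from 5 lists of 65 genes, of which 60 were measured. At the adjusted threshold 0 of the 60 passed in either direction in limma, while at an unadjusted p under 0.05 there were 18 lower and 2 higher, where all genes gave 6.56% and 5.31%. In 18 genes all HKO arrays lay below Con and in 3 above, where all genes gave 10.1% and 8.05%. The median difference was -0.18, with 48 genes lower on average, where 51.8% of all genes were. Among the 11321 genes whose mean level was above the background limit, the shares were higher. They were 57.0% lower on average, 15.1% below without overlap and 9.51% lower at an unadjusted p under 0.05.

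Chain modification and folding in the endoplasmic reticulum was covered by 18 genes, 13 with a lower HKO mean and a median difference of -0.089. P4hb, a subunit of prolyl hydroxylase and a disulfide isomerase, read 10.59, 10.51 and 10.57 in Con and 10.38, 10.25 and 10.19 in HKO, without overlap. Its difference was -0.28 ± 0.10 (SE, limma adjusted p = 0.334). P3h2, a prolyl hydroxylase acting on basement membrane collagen, read 5.09, 5.33 and 5.22 in Con and 5.45, 5.42 and 5.63 in HKO, all of them above Con, a difference of 0.29 ± 0.11 (SE, limma adjusted p = 0.374). Plod2, a lysyl hydroxylase, was dim, with overlapping groups and a difference of -0.35 (limma adjusted p = 0.399).

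Procollagen processing and cross-linking was covered by 12 genes, 9 with a lower HKO mean and a median difference of -0.16. Sparc, a collagen-binding matrix protein, read 7.92, 8.22 and 8.15 in Con and 7.30, 7.68 and 7.74 in HKO. The difference was -0.52 ± 0.15 (SE, limma adjusted p = 0.251). Loxl3, a lysyl oxidase that cross-links fibres, differed by -0.50 and Pcolce, which enhances cleavage of the procollagen tail, by -0.47, both without overlap and each with a limma adjusted p of 0.293.

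Fibril partners, the proteoglycans and glycoproteins that bind collagen fibres, were covered by 11 genes, 9 with a lower HKO mean and 5 lower without overlap, beside the 15.1% of genes above background, since none of the 11 was dim. Postn, the fibroblast protein periostin, read 6.91, 6.96 and 6.82 in Con and 5.65, 5.50 and 6.15 in HKO. The groups were well apart, and the difference was -1.13 ± 0.17 (SE, limma adjusted p = 0.0537), just short of the threshold. Thbs1, a matrix protein that activates TGF-beta, read 4.62, 5.09 and 4.76 in Con and 3.80, 3.77 and 4.14 in HKO, a difference of -0.92 ± 0.16 (SE, limma adjusted p = 0.0835). Thbs2, a related protein, differed by -0.48 (limma adjusted p = 0.259), also without overlap.

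Collagen receptors numbered 9, of which 8 had a lower HKO mean, with a median difference of -0.17. Mrc2, an endocytic collagen receptor, was dim and differed by -0.57 without overlap (limma adjusted p = 0.188). Lair1, an inhibitory receptor of leukocytes, differed by -0.35 and the dim integrin chain Itga2 by -0.38, both with overlapping groups. Collagen breakdown was covered by 10 proteases and inhibitors, 9 with a lower HKO mean and a median difference of -0.33. Mmp14, a membrane-bound collagenase, read 7.51, 7.46 and 7.24 in Con and 6.97, 6.73 and 6.66 in HKO. No array overlapped, and the difference was -0.62 ± 0.13 (SE, limma adjusted p = 0.133). Timp1, an inhibitor of these proteases, was dim and differed by -0.78 without overlap (limma adjusted p = 0.149), and the dim collagenase Mmp13 differed by -0.59 with overlap (limma adjusted p = 0.305).

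Markers of liver cell types were set beside the collagen values. For the counts of lower means below, 51.8% of all genes and 57.0% of those above background had a lower HKO mean. In the list of activated myofibroblasts, the collagen-secreting cells of scars, 7 of 8 measured genes had a lower HKO mean and 6 were lower without overlap, though 0 passed the adjusted threshold in limma and 5 had an unadjusted p under 0.05. The shares over all genes were 10.1% without overlap and 6.56% at that p, and over genes above background 15.1% and 9.51%. The mean level of the list ran from 4.72 to 5.09 over Con arrays and from 4.304 to 4.45 over HKO arrays, with Timp1, Lox and Cnn1 dim. Acta2, smooth muscle actin, read 5.96, 6.53 and 6.16 in Con and 5.45, 5.95 and 5.02 in HKO, a difference of -0.74 ± 0.24 (SE, limma adjusted p = 0.294). Postn, Timp1 and Lox are also among the genes that act on collagen above, and Des is also in the stellate cell list. Mmp12 is in both the collagen breakdown and monocyte-derived macrophage lists, and Cd34 in both the portal fibroblast and vascular endothelial lists. The counts of these lists are therefore not separate.

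The stellate cell list had 7 of 11 genes with a lower mean, and its mean level ran from 6.38 to 6.62 in Con and from 6.19 to 6.47 in HKO, so the groups overlapped. None of the 11 was dim. In 3 of them all HKO arrays lay below Con, against 10.1% of all genes and 15.1% of those above background. At an unadjusted p under 0.05, 2 were lower, against 6.56% and 9.51%. Pdgfrb, the receptor for platelet-derived growth factor, read 5.89, 6.44 and 6.45 in Con and 5.26, 5.48 and 5.83 in HKO. These groups did not overlap, and the difference was -0.73 ± 0.20 (SE, limma adjusted p = 0.223). Nt5e, the ectonucleotidase CD73, fell by 0.83 ± 0.10 (SE, limma adjusted p = 0.0314), whereas Lrat, the retinol-storing enzyme that marks stellate cells, read 7.67, 7.79 and 7.88 in Con and 7.64, 7.70 and 8.08 in HKO. Reln, a further stellate cell marker, differed by -0.0047. Of the portal fibroblast and mesothelial list 8 of 10 genes had a lower mean, with list means of 4.19 to 4.46 in Con and 3.93 to 4.32 in HKO. In 2 of the 10 all HKO arrays lay below Con, beside 10.1% of all genes and 15.1% of those above background. At an unadjusted p under 0.05, 2 were lower, beside 6.56% and 9.51%. Gas6, a ligand of TAM receptors, fell by 0.80 ± 0.10 (SE, limma adjusted p = 0.0314). Thy1 differed by 0.023 and Pdgfra by -0.18, both with overlapping groups, and 5 genes, Cd34, Msln, Upk3b, Mfap4 and Clec3b, were dim.

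Of 10 markers of monocyte-derived macrophages, all had a lower HKO mean, and Ccr2 and Ly6c2 were dim. List means ran from 4.91 to 5.11 in Con and from 4.14 to 4.57 in HKO. In 4 of the 10 all HKO arrays lay below Con, beside 10.1% of all genes and 15.1% of those above background. At an unadjusted p under 0.05, 6 were lower, beside 6.56% and 9.51%. Itgax, the integrin CD11c, fell by 1.02 ± 0.12 (SE, limma adjusted p = 0.0280). Vascular endothelial markers had a lower mean in 6 of 6 genes, with list means of 6.61 to 6.72 in Con and 6.31 to 6.47 in HKO, and 0 past the adjusted threshold in limma with 3 lower at an unadjusted p under 0.05, beside 6.56% of all genes and 9.51% of those above background. Kupffer cell means, over 8 genes of which 4 were lower, overlapped between the groups, at 6.69 to 7.10 in Con and 6.62 to 6.88 in HKO. Sinusoidal endothelial means were 7.62 to 7.65 in Con and 7.58 to 7.65 in HKO, and hepatocyte means 10.40 to 10.50 and 10.37 to 10.66, with 2 genes lower in each list. Cholangiocyte markers, 5 of 6 with a lower mean, were dim for Krt19, Krt7, Cftr and Tspan8, and list means were 3.73 to 3.76 in Con and 3.52 to 3.73 in HKO. Of 5 adipocyte markers 2 had a lower mean, and the list median difference was 0.15. Adipoq, Lep and Plin1 were dim, and in Adipoq and Lep all HKO arrays lay above Con, as in 8.05% of all genes. List means, which include the fall of Fabp4, were 3.78 to 3.85 in Con and 3.61 to 3.74 in HKO. Fabp4, a fatty acid binding protein that macrophages and endothelium also make, fell by 1.22 ± 0.17 (SE, limma adjusted p = 0.0444). The part of these cell types in the collagen differences was not tested.

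**Figure D4:**
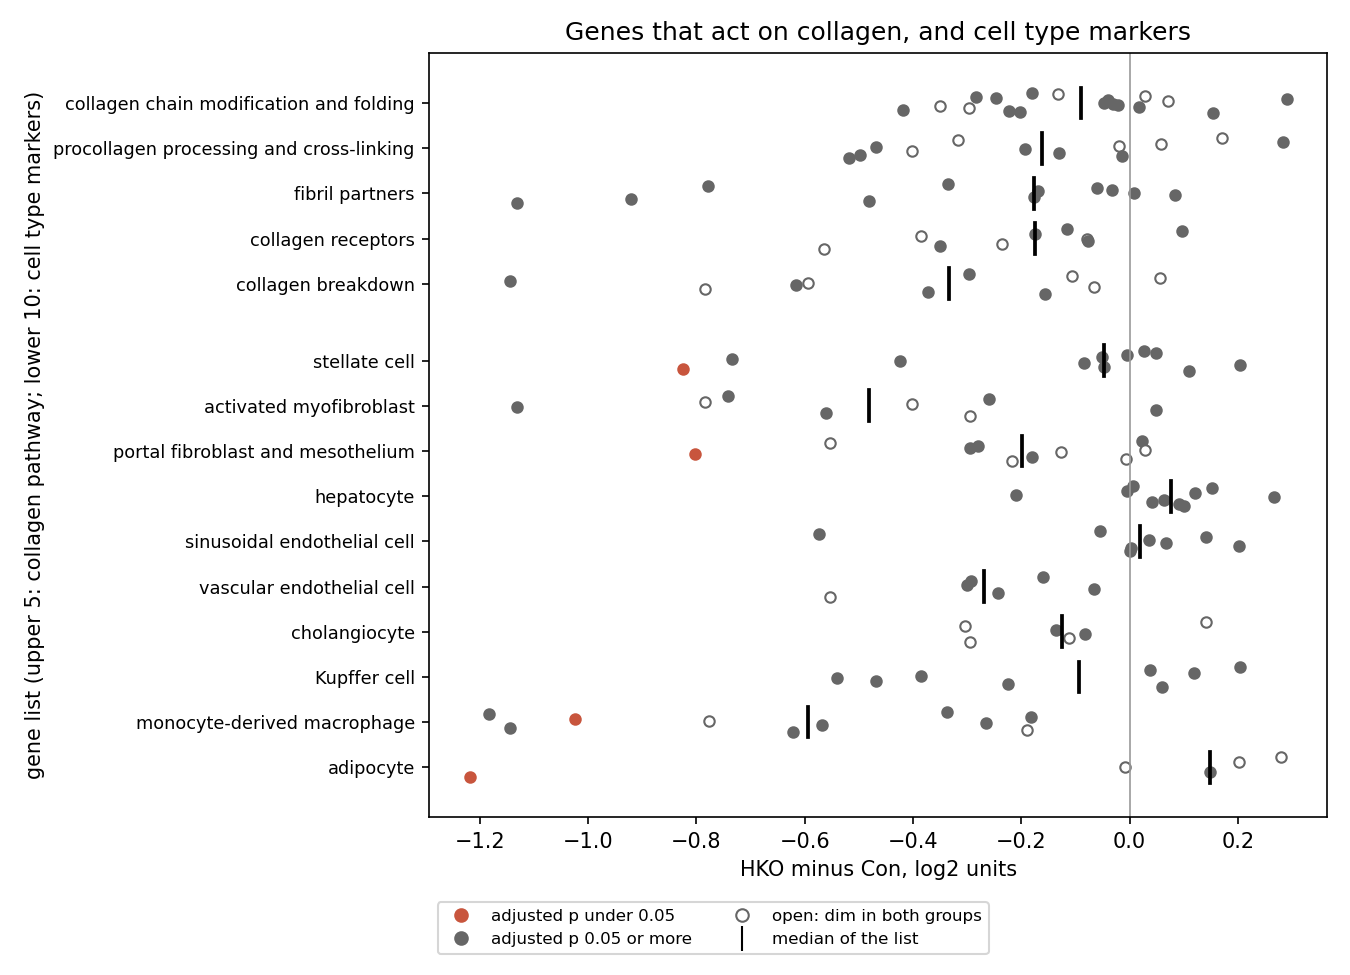
HKO minus Con difference on the log2 scale (x axis) of each measured gene in 5 lists of genes that act on collagen and 10 lists of cell type markers (y axis), with the list median as a bar and open symbols for genes dim in both groups. The medians of activated myofibroblast and monocyte-derived macrophage markers are at -0.48 and -0.59, and those of hepatocyte and sinusoidal endothelial markers at 0.077 and 0.02.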

How the data were processed

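The authors deposited log2 values, a single one for each probe set on each array. Per the submitters' processing notes, they used R 3.3.0 and RMA. RMA equalises the arrays' distributions, so differences are relative to the whole array. Of 41345 probe sets, the platform annotation gave 1 gene to 23521, several to 1814 and none to 16010; only the first were used. Symbols were checked against a RefSeq table of GRCm38.p6. Array medians over genes were all near 3.95. Arrays have no read depth, and their number limits the precision.

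HKO and Con were compared with limma 3.58.1 (R 4.3.3, functions lmFit and eBayes, two-sided, group as the only term, no filter on low values), and the steps were tested on simulated data. The collagen genes above background, and dim ones at an unadjusted p under 0.05, are given by array; of each list of genes acting on collagen, the 3 with the lowest p are named. Marker genes outside the rule were chosen after their values were seen. The collagen genes and all lists were chosen with earlier results of these data known. Alternatives covered normalization, centring, filters on low values, the choice of probe set, the variance model, weights per array, a block for the replicate number, thresholds and leaving out each array. Plots used matplotlib 3.10.9 under Python 3.11.15.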

Additional observations from a re-analysis of the deposited data

How the results depend on the processing

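The count of collagen genes past the adjusted threshold, 1 as reported, was 0 under a second quantile normalization and with the mean of a gene's probe sets, 0 in every fit that left out an array (0 to 0), 2 with either filter on low values, 2 at an adjusted p threshold of 0.1 and 3 with a variance trend (Col1a1, Col1a2 and Col6a1). It was 1 under centring, a robust fit, array weights and when each probe set entered the test separately. Under both filters, which leave 20 collagen genes, the median difference was -0.30, beside -0.032 over all genes above the olfactory receptor level, of which 57.0% had a lower HKO mean. Collagen genes at an unadjusted p under 0.05 numbered 10 to 13, and those with HKO below Con 11 to 15, over all alternatives. The filters count out of 20 genes and the other settings out of 44. The counts of 13 to 15 below Con came from fits without an array, where fewer arrays separate more easily. Shares of all genes passing or separating were not taken under each alternative, so the counts given here have no matching background. With the median over genes, 3.94, as the background, 24 collagen genes were dim, as reported. This count could not differ, because both limits lie between the nearest levels, 3.79 for Col7a1 and 4.10 for Col25a1. Genes acting on collagen past the threshold, 0 as reported, were 2 with either filter (Postn and Thbs1), 3 with a variance trend (also Mmp14), 1 with array weights (Postn), and 0 to 1 when an array was left out. Snai2 differed by -2.69 to -2.15 without an array, and its limma adjusted p went to 0.0758, 0.0927 and 0.0621 when Con replicate 1, Con replicate 2 or HKO replicate 2 was dropped. The sign turned for Col20a1, to 0.0061 under a second quantile normalization and 0.0046 without HKO replicate 1 (range -0.024 to 0.0046 over arrays left out), and for Col27a1, to -0.065 without HKO replicate 3 (range -0.065 to 0.21). The cause of these changes was not tested. Under the filters fewer genes entered the test and the model was fitted anew, and these were not separated.

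Same-numbered Con and HKO arrays did not deviate together, with correlations of 0.0323, 0.016 and 0.0214, so the numbers are taken as names. With the replicate number as a block, 0 collagen genes passed the threshold (Col1a2 with a limma adjusted p of 0.0789), and Snai2 kept its difference of -2.43 with a limma adjusted p of 0.0540.

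Col1a1, Col1a2 and Col6a1 thus passed or missed the adjusted threshold depending on the setting, with the direction kept in every fit by gene. The second, dim Col6a1 probe set, when tested separately, differed by 0.081. For the 24 dim collagens, signals near the array's background limit what can be said of a difference.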
